A study of Homo sapiens with 94 samples.

Results

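The data describe tumors of the NCI-H226 xenograft 24 h after a single dose of K-975 at 100 mg/kg, set against tumors of vehicle-treated mice of the same study. K-975 is a covalent inhibitor that binds the lipid pocket of the TEAD transcription factors, and NCI-H226 is a human pleural mesothelioma cell line with a deletion of NF2, the gene of the Hippo regulator merlin. The 8 libraries compared were all libraries of the cage group given 100 mg/kg and of the cage group given vehicle that had at least 10000 genes at an FPKM of 1 or more, 4 of each, out of 94 libraries in the series. The study set such tumor transcripts, as a readout of drug action, beside the binding of K-975 to TEAD and its effect on tumor growth. All mice were SCID mice, which lack B and T lymphocytes, and were female animals of a CB17 strain, and their age is not given in the labels. The cells were injected subcutaneously into the flank, and each library came from the tumor of a separate animal. The vehicle tumors and those of 200 mg/kg K-975 were from mice dosed with 20 mL/kg, and the tumors of 100 mg/kg from mice dosed with 10 mL/kg. Between 100 mg/kg and vehicle, dose, dosing volume and cage coincide and cannot be told apart. Between 200 mg/kg and vehicle the volume was the same, and dose and cage coincide. Comparisons are drawn below with 5 tumors of 200 mg/kg and 5 of untreated mice at 24 h, and with 10 tumors of 100 mg/kg and 10 of vehicle taken at 3 to 6 h in another study of the series.

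In the Hippo pathway, a cascade of the kinases MST and LATS phosphorylates the coactivators YAP and TAZ (the product of WWTR1) and keeps them out of the nucleus. Without this brake, for example after loss of NF2, YAP and TAZ bind TEAD1 to TEAD4 and drive genes such as CCN1 (also called CYR61), CCN2 (also called CTGF) and ANKRD1. TEAD proteins carry a palmitate in a central pocket, and compounds that occupy this pocket weaken the transcriptional output of the complex. Mesothelioma is a tumor in which this pathway is often altered.

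The promoter of CCN2, the best known TEAD target, is shown because the TEAD core motif GGAATG stands in it more than once. The promoter of PGK1, a glycolytic enzyme that was lower in the treated tumors, is shown because it holds the core of the hypoxia response element, ACGTG, on either strand. Both sequences are from RefSeq (GRCh38.p14), read 5′ to 3′ on the strand of the gene, and capitals mark the motif.
CCN2, chr6:131951374-131951622, minus strand: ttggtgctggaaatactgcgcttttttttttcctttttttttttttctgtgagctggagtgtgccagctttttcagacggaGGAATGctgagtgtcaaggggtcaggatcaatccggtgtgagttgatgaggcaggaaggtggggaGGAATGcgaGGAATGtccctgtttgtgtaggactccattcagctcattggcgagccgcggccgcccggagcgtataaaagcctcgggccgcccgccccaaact
PGK1, chrX:78103998-78104173, plus strand: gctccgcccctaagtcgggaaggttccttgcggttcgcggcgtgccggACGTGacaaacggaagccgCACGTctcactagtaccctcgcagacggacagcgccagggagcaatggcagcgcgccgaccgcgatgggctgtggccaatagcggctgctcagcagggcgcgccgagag
In CCN2, 3 copies of GGAATG began 169, 104 and 95 bases before the RefSeq start of the gene. In PGK1, ACGTG began 202 bases and its reverse complement CACGT 183 bases before the start, and the sequence shown stops where the first annotated exon begins. A motif match describes the sequence only and does not show that a factor binds there. Over the 250 bases upstream of each start, GGAATG or its reverse complement CATTCC occurred in 11.9% of all 35116 RefSeq promoter windows (a gene can have several) and in 10% of those of the genes tested.

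The libraries were enriched for transcripts with capture probes, and the values are FPKM, which scale fragments to transcript length and library size. They come without read counts, so the depth in reads is unknown. The 4 treated tumors held 11489 to 11561 genes at an FPKM of at least 1 and the 4 vehicle tumors 11356 to 11422, so the groups did not overlap in this measure, and its part in the results below was not tested. Pairwise correlations of log2 values across genes were 0.9553 to 0.9664 among the treated tumors and 0.9705 to 0.9765 among the vehicle tumors. Another library of 100 mg/kg, replicate 5, held 7196 such genes and was left out. Mesothelial markers were abundant in both groups: mesothelin (MSLN) had a mean FPKM of 278 with treatment and 243 with vehicle, WT1 33.0 and 30.2, and calretinin (CALB2) 664 and 508, and none of the 18 mesothelial markers tested was called by limma in either direction (5 at an unadjusted p under 0.05, median log2 fold change 0.211). NF2 was at a mean FPKM of 0 and 0.0686.

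A small share of the genes passed the test of 100 mg/kg against vehicle at 24 h, which does not measure how many genes changed. The genes that fell included those for glucose transport and glycolysis (SLC2A3, PGK1, LDHA), sterol synthesis (ACAT2, FDPS, MSMO1), and the positive effectors of TEAD activity SKP2, THBS1 and WWC1. Those that rose were led by LRRC51, KLHL4, CARNS1 and SMIM1, and included the actin-severing protein gelsolin (GSN). Of 13036 genes tested with limma on log2(FPKM + 1), 146 (1.12%) passed at an adjusted p under 0.05, 76 higher (0.583%) and 70 lower (0.537%). Their log2 fold changes ran from -2.04 to 1.58, with a median size of 0.67, and 32 were at least 1 in size (19 higher, 13 lower). On the log2(FPKM + 1) scale the change of low genes is understated. The median over all genes tested was 0.029, and 1837 genes had an unadjusted p under 0.05.

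The count of 146 depended on which tumors were included. It was 61, 30 and 290 without replicate 2, 3 or 4 of 100 mg/kg, and 71, 73 and 73 without replicate 1, 2 or 3 of vehicle. With all 94 libraries, the shallow replicate 5 of 100 mg/kg included, 2 genes passed, LRRC51 higher and SLC2A3 lower. Replicate 5 was extreme in both genes. It had LRRC51 at 61.2 FPKM, above the highest kept treated tumor (9.15), and SLC2A3 at 0, below the lowest (14.3). With only the 8 libraries in the fit, so that the spread came from these tumors and not from all groups, 9 genes passed. After median-of-ratios scaling, 76 genes were higher and 108 lower. The treated and vehicle tumors did not overlap for 550 higher genes (4.22%) and 383 lower genes (2.94%), and 66 and 60 of these were called.

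**Figure D1:**
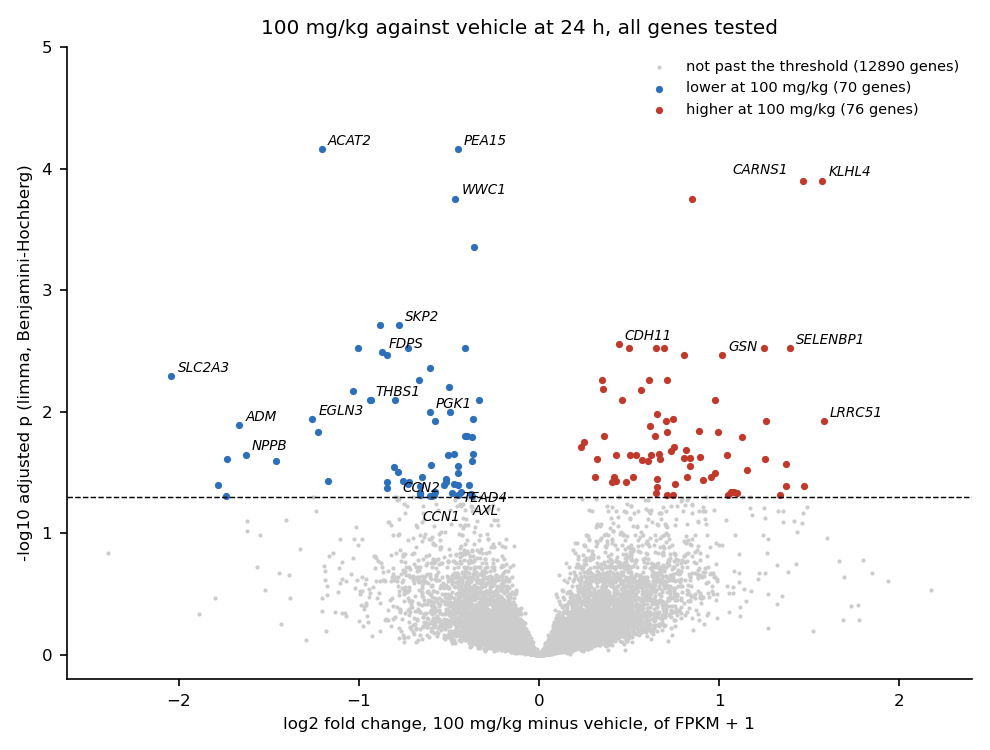
Volcano plot of 100 mg/kg K-975 against vehicle at 24 h, with the log2 fold change on the x axis and minus log10 of the adjusted p on the y axis, 1 point per gene for 13036 genes. The dashed line is the threshold of 0.05, and the 76 higher and 70 lower genes above it lie between -2.04 and 1.58.

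Among the called genes the largest decrease was in SLC2A3, which encodes the glucose transporter GLUT3. Its FPKM was 25.1, 14.3, 23.1 and 26.5 in the 4 treated tumors and 88.7, 83.3, 63.4 and 156 in the 4 vehicle tumors. Every treated tumor was well below every vehicle tumor, and the spread was wider with vehicle (log2 fold change -2.04 ± 0.43 SE, adjusted p = 0.00509). SLC2A3 was called under each of the 18 alternative settings computed for it, with values from -2.94 to -1.79, and it was the 1 gene of 37 named called genes of which this held.

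Other genes that respond to low oxygen fell as well. ADM, the gene of the vasodilator adrenomedullin, was at 49.3, 41.2, 19.7 and 62.8 FPKM with treatment against 141, 146, 108 and 123 with vehicle (log2 fold change -1.66 ± 0.39 SE, adjusted p = 0.013). EGLN3, a prolyl hydroxylase that marks the hypoxia-inducible factor for degradation and is itself induced in hypoxia, was at 14.7, 8.18, 10.5 and 9.51 against 26.3, 24.2, 28.4 and 27.1 (log2 fold change -1.26 ± 0.29 SE, adjusted p = 0.0116). In both genes the highest treated tumor stayed below the lowest vehicle tumor. PGK1, phosphoglycerate kinase, was at 138, 115, 97.2 and 107 against 163, 190, 152 and 192 (log2 fold change -0.61 ± 0.14 SE, adjusted p = 0.0101). HILPDA, a lipid droplet protein induced in hypoxia, was at 5.43, 5.09, 3.30 and 4.67 against 22.0, 20.3, 12.9 and 16.3 (log2 fold change -1.74 ± 0.48 SE, adjusted p = 0.0492). Both sets of values were apart, PGK1 by a narrow margin and HILPDA by more than the range of the treated tumors. The call of HILPDA was lost in 12 of 18 alternative settings, among them all 8 that leave out a tumor.

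Among the 26 tested members of the hypoxia and glycolysis list, 5 fell (19.2% called, against 1.12% of all genes) and none rose: SLC2A3, ADM, EGLN3, PGK1 and lactate dehydrogenase LDHA. LDHA had a mean of 751 ± 61.1 FPKM (SD, n = 4) against 968 ± 99.0 (log2 fold change -0.36 ± 0.09 SE, adjusted p = 0.0223). The members' median log2 fold change was -0.582, and 25 of 26 values were negative. In 11 members all treated tumors were below all vehicle tumors, as in 2.94% of all genes. Hexokinase HK2 (log2 fold change -1.62, adjusted p = 0.095), the glucose transporter SLC2A1 (-1.03, adjusted p = 0.11) and VEGFA, the angiogenic growth factor (-0.81, adjusted p = 0.19), did not pass. CA9, a carbonic anhydrase used as a marker of hypoxia, was at 59.4 FPKM with treatment and 56.5 with vehicle. The count of called members was 1 without replicate 3 and 3 without replicate 2 of 100 mg/kg, and 1 with all 94 libraries. In the promoter windows of this list, ACGTG or CACGT stood in 17 of 35 (48.6%, from the 22 members found in RefSeq), against 21.7% of the windows of all genes tested and 14.1% of those of the genes called lower. A palindromic CACGTG counts on both strands and overlaps itself.

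Of the genes of cholesterol synthesis, 3 fell. ACAT2, the thiolase that makes acetoacetyl-CoA for the mevalonate pathway, was at 34.1, 40.2, 30.2 and 37.3 FPKM in the treated tumors and 72.7, 84.6, 105 and 72.3 in the vehicle tumors (log2 fold change -1.21 ± 0.19 SE, adjusted p = 6.92e-05). FDPS, farnesyl diphosphate synthase, was at 69.1, 58.1, 52.5 and 63.0 against 97.8, 114, 130 and 105 (log2 fold change -0.87 ± 0.18 SE, adjusted p = 0.00324). For each gene the treated and vehicle tumors formed separate ranges, the vehicle range being the wider. MSMO1, a methylsterol oxidase, was at 35.2, 46.1, 30.0 and 26.9 against 54.5, 43.5, 58.7 and 59.6, so that 1 treated tumor lay above the lowest vehicle tumor (log2 fold change -0.65 ± 0.17 SE, adjusted p = 0.0344). These were the 3 members called among 24 tested (12.5%, against 1.12% of all genes), with a list median of -0.334, 22 negative values and 12 members whose groups were apart and lower (2.94% of all genes were), and none was called with all 94 libraries.

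In fatty acid synthesis 2 genes fell, with smaller differences. FASN, fatty acid synthase, was at 164, 154, 133 and 146 FPKM with treatment and 194, 216, 221 and 186 with vehicle (log2 fold change -0.45 ± 0.12 SE, adjusted p = 0.0481). ACLY, which supplies cytosolic acetyl-CoA, was at 50.4, 48.2, 41.0 and 48.5 against 61.3, 63.9, 62.2 and 55.7 (log2 fold change -0.37 ± 0.08 SE, adjusted p = 0.0116). Neither gene overlapped between groups, and the call of FASN was lost in 13 of 18 alternative settings. They were the 2 called of 14 tested members (14.3%, against 1.12% of all genes), with a list median of -0.173 and 4 positive values. The sterol element TCACNCCAC or its reverse complement GTGGNGTGA stood in 1 of 23 windows of the sterol list (4.35%), that of SREBF2, which was not called (log2 fold change -0.15, adjusted p = 0.52). It stood in 2 of 35 windows of the hypoxia and glycolysis list (5.71%) and in 0.908% of those of all genes tested.

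**Figure D2:**
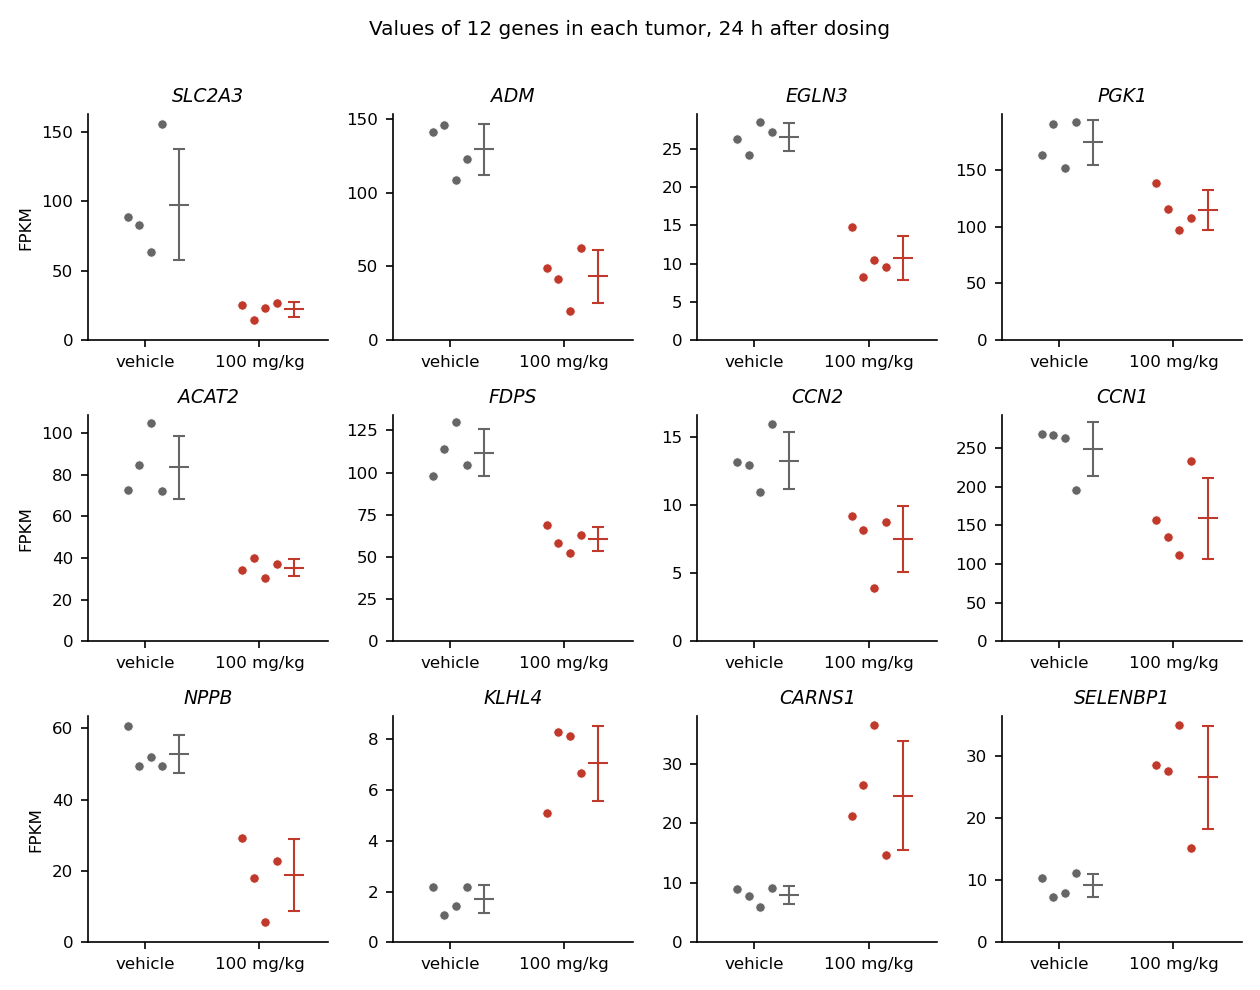
FPKM per tumor (points) for 12 genes at 24 h, in the 4 tumors of 100 mg/kg K-975 and the 4 of vehicle, with bars for mean ± SD and a separate y axis from 0 for each gene. SLC2A3, ACAT2 and KLHL4 were apart between groups, and CCN1 overlapped through 1 tumor of each group.

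The canonical YAP/TAZ targets were lower in most tumors without passing the test across all genes. CCN1 was at 158, 135, 112 and 233 FPKM with treatment and 268, 268, 263 and 196 with vehicle (log2 fold change -0.68 ± 0.21 SE, adjusted p = 0.0858). The groups overlapped through replicate 4 of each, the highest treated tumor and the lowest vehicle tumor. CCN2 was at 9.19, 8.12, 3.90 and 8.77 against 13.1, 12.9, 10.9 and 16.0, with every treated tumor below every vehicle tumor, and its adjusted p of 0.05 was just over the threshold (log2 fold change -0.79 ± 0.22 SE). Near the floor of the measurement, ANKRD1, a cardiac ankyrin repeat protein used as a YAP reporter, was at 0.183, 0.828, 0 and 1.77 against 2.14, 2.01, 1.58 and 1.5 (log2 fold change -0.84 ± 0.26 SE, adjusted p = 0.0802). The receptor tyrosine kinase AXL was at 160, 147, 130 and 210 against 221, 219, 225 and 182 (log2 fold change -0.41 ± 0.12 SE, adjusted p = 0.0768). In ANKRD1 and AXL, replicate 4 of the treated tumors again lay within the vehicle range.

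Of the 22 genes of the YAP/TAZ target signature, all tested, 0 were called by limma at an adjusted p under 0.05 and 8 had an unadjusted p under 0.05. The median log2 fold change was -0.237, 19 values were negative, and 4 genes were apart and lower (CCN2, IGFBP3, LATS2 and FJX1) and 1 apart and higher (ARHGEF17). Of all genes, 2.94% were apart and lower and 4.22% apart and higher. The insulin-like growth factor carrier IGFBP3 had the lowest value of the list (log2 fold change -1.25, adjusted p = 0.05, just over the threshold). Without replicate 4 of 100 mg/kg 5 members of the signature were called lower, and without replicate 1 of 100 mg/kg 2 were. AMOTL2, an angiomotin family member and negative feedback target, was at 17.7, 26.3, 27.2 and 29.8 FPKM against 30.5, 25.7, 29.0 and 25 (log2 fold change -0.14 ± 0.14 SE, adjusted p = 0.713), and CRIM1 had a log2 fold change of -0.25 ± 0.08 SE (adjusted p = 0.0779). GGAATG or CATTCC stood in 8 of 19 promoter windows of the signature (42.1%), in 15 of 85 windows of the genes called lower (17.6%) and in 6 of 99 windows of the genes called higher (6.06%).

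The TEAD factors and their coactivators themselves did not pass. TEAD4 was at 35, 39.8, 27.6 and 38.0 FPKM with treatment and 52.3, 46.2, 45.8 and 48.4 with vehicle, apart in all tumors (log2 fold change -0.46 ± 0.13 SE, adjusted p = 0.06). TEAD1, the TEAD of the highest level, had means of 117 ± 16.0 and 107 ± 13.2 FPKM (SD, n = 4 each), TEAD2 of 10.9 ± 2.98 and 8.13 ± 0.939, and TEAD3 of 12.3 ± 2.03 and 13.2 ± 1.52. YAP1 had means of 76.1 ± 5.25 and 71.6 ± 6.89 and WWTR1 of 15.1 ± 4.07 and 14.7 ± 5.14. Their adjusted p ran from 0.533 to 0.931, and the ranges overlapped in each.

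The Hippo component that did fall was WWC1, also known as KIBRA, an upstream scaffold that promotes LATS activity and is itself a target of YAP. It was at 348, 333, 290 and 366 FPKM in the treated tumors and 470, 468, 468 and 438 in the vehicle tumors, with a gap of more than the range of the vehicle tumors between the groups (log2 fold change -0.47 ± 0.08 SE, adjusted p = 0.000177). It was the 1 gene called among 30 tested Hippo pathway components (3.33%, against 1.12% of all genes, median -0.059). LATS2, a core kinase and feedback target, was at 22.4, 23.7, 17.1 and 23.3 against 24.0, 27.5, 24.0 and 33.1 (log2 fold change -0.31 ± 0.20 SE, adjusted p = 0.491).

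The positive effectors, 249 genes that the study linked to TEAD activity in other public data, gave more calls lower than higher. Of the 240 tested, 13 were called lower and 1 higher (5.83% called, against 1.12% of all genes). Of these 240, 31 were apart and lower and 2 apart and higher, where 2.94% and 4.22% of all genes were. The median log2 fold change was -0.201 with 182 negative values. SKP2, the F-box protein that directs the degradation of cell cycle inhibitors, was at 53.5, 70.6, 58.2 and 65.0 FPKM against 106, 117, 128 and 81.0 (log2 fold change -0.78 ± 0.15 SE, adjusted p = 0.00194). The lowest vehicle tumor was replicate 4, still above the highest treated tumor. Besides SKP2, the lower genes were ACAT2, WWC1, FDPS, the matrix protein thrombospondin THBS1, CDH4, ADM, SNAPC1, the transcription factor ETS1, DIAPH3, STXBP6, ROR1 and TAGLN. The 1 that rose was OLFML3, a secreted olfactomedin family protein, at 2.20, 2.57, 1.19 and 0.983 against 0.712, 0.168, 0.180 and 0.169 (log2 fold change 1.04 ± 0.26 SE, adjusted p = 0.0225). Of these called genes, ADM is also in the hypoxia list, and ACAT2 and FDPS are also in the sterol list. WWC1 is also among the Hippo pathway components, THBS1 in the TGF-beta and activin list, and TAGLN among the actin and serum response factor targets. The 13 became 7, 6 and 27 without replicate 2, 3 or 4 of 100 mg/kg, 7 without replicate 1, 2 or 3 of vehicle, and 0 with all 94 libraries.

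Of the negative effectors, 195 of 233 were tested and 2 rose, with none called lower (1.03% called, close to the 1.12% of all genes). GSN was at 11.7, 15.0, 16.4 and 9.56 FPKM against 7.48, 6.84, 4.01 and 5.74 (log2 fold change 1.01 ± 0.21 SE, adjusted p = 0.00342), and VPS52, a subunit of a complex that tethers vesicles at the Golgi, at 19, 13.7, 13.6 and 15.2 against 9.98, 10.9, 12.1 and 11.5 (log2 fold change 0.43 ± 0.11 SE, adjusted p = 0.0225). All treated tumors were above all vehicle tumors in both. The median of the list was 0.122, with 139 positive values, 17 members apart and higher and 3 apart and lower, where 4.22% and 2.94% of all genes were apart.

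The deR score sums up both lists in each tumor as the mean rank of the positive effectors minus that of the negative effectors, with ranks from 0 to 1 among the effectors of a library. It was 0.178, 0.187, 0.159 and 0.210 in the treated tumors and 0.224, 0.225, 0.232 and 0.200 in the vehicle tumors. In 3 of 4 treated tumors it was below all vehicle tumors, and replicate 4 of 100 mg/kg lay above replicate 4 of vehicle. The means were 0.184 ± 0.0211 and 0.220 ± 0.0138 (SD, n = 4 each), a difference of -0.0367 (two-sided exact permutation p = 0.0571, where 0.0286 is the smallest that 4 against 4 allows). The mean rank of the positive effectors was 0.590 against 0.608, and that of the negative effectors 0.406 against 0.387 (exact permutation p = 0.0571 for each). With the shallow replicate 5 the difference was -0.0442 (exact permutation p = 0.0317), and against the 5 untreated tumors it was -0.0337 (exact permutation p = 0.0317).

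**Figure D3:**
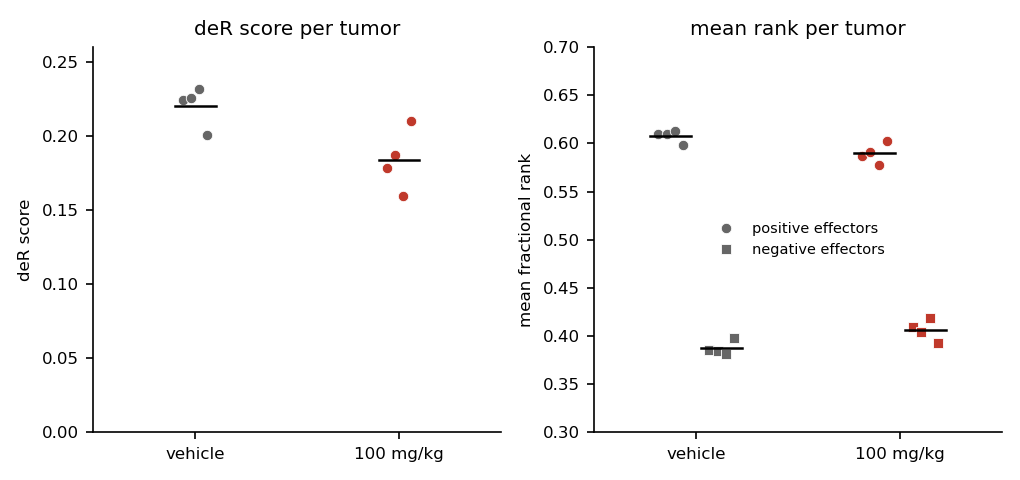
The deR score and the mean ranks of the positive and negative effectors in each of the 4 tumors of 100 mg/kg K-975 and the 4 of vehicle at 24 h (points), with bars for the group means. The score was 0.159 to 0.210 with treatment and 0.200 to 0.232 with vehicle, with 1 treated tumor inside the vehicle range.

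Genes of the cytoskeleton and matrix moved in both directions. The shares called in the lists below stand against 1.12% of all genes. Among 22 tested actin and serum response factor targets, ACTN1 and TAGLN fell (9.09% called, median -0.121). ACTN1, which crosslinks actin filaments, was at 138, 137, 129 and 159 FPKM with treatment and 185, 190, 196 and 176 with vehicle (log2 fold change -0.41 ± 0.08 SE, adjusted p = 0.00299), and transgelin (TAGLN) at 62.3, 46.6, 65.3 and 43.4 against 74.3, 79.0, 102 and 72.6 (log2 fold change -0.59 ± 0.16 SE, adjusted p = 0.0494). The ranges did not overlap in either, and the call of TAGLN was lost in 13 of 18 alternative settings. THBS1 was at 25.9, 13.5, 19.3 and 20.1 against 32.4, 44.2, 37.7 and 37.8 (log2 fold change -0.94 ± 0.21 SE, adjusted p = 0.00803), the 1 call among 25 genes of TGF-beta and activin signaling (4.00%, median -0.365). CDH11, a mesenchymal cadherin, rose from 277, 288, 266 and 304 with vehicle to 414, 406, 426 and 306 (log2 fold change 0.44 ± 0.09 SE, adjusted p = 0.00278), the 1 call of 12 EMT factors and cadherins (8.33%, median 0.082). Replicate 4 of the treated tumors was just above the highest vehicle tumor. COL18A1, the basement membrane collagen that gives rise to endostatin, was at 219, 292, 244 and 234 against 190, 190, 174 and 184 (log2 fold change 0.42 ± 0.11 SE, adjusted p = 0.0342), the 1 call of 17 collagens (5.88%, median -0.062).

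Several further genes fell. NPPB, the precursor of B-type natriuretic peptide, was at 29.2, 18.1, 5.61 and 22.7 FPKM against 60.6, 49.4, 51.9 and 49.3 (log2 fold change -1.63 ± 0.40 SE, adjusted p = 0.0225). ETS1 was at 47.0, 27.9, 22.4 and 55.5 against 87.1, 80.5, 74.2 and 86.0 (log2 fold change -1.17 ± 0.31 SE, adjusted p = 0.0372). In both genes replicate 3 was the lowest treated tumor and the groups were apart. PEA15, a small phosphoprotein that binds ERK and holds it in the cytoplasm, had values that spread little within groups, 169, 172, 183 and 183 against 235, 248, 239 and 246 (log2 fold change -0.45 ± 0.07 SE, adjusted p = 6.92e-05). TIFA, an adaptor of NF-kB signaling, was at 11.3, 8.68, 9.32 and 7.85 against 26.5, 17.6, 24.2 and 24.6 (log2 fold change -1.23 ± 0.29 SE, adjusted p = 0.0148). DEPP1 (log2 fold change -1.78 ± 0.48 SE, adjusted p = 0.04) and MAMDC2 (-1.46 ± 0.37 SE, adjusted p = 0.0253) were at means of 2.90 and 2.05 FPKM with treatment and 11.4 and 7.41 with vehicle. IRS2, an adaptor of the insulin and IGF receptors, was at 14.8, 11.4, 14.5 and 15.0 against 20.7, 23.0, 16.7 and 25.1 (log2 fold change -0.58 ± 0.16 SE, adjusted p = 0.0455), the 1 call of 11 genes of the IGF axis (9.09%, against 1.12% of all genes, median 0.304). All of these genes were apart in the same direction.

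The genes that rose were mostly of low to moderate level. KLHL4, a kelch-like protein, was at 5.10, 8.28, 8.11 and 6.68 FPKM with treatment and 2.17, 1.08, 1.42 and 2.17 with vehicle (log2 fold change 1.57 ± 0.26 SE, adjusted p = 0.000126). CARNS1, which makes the dipeptide carnosine, was at 21.2, 26.4, 36.4 and 14.7 against 8.99, 7.74, 5.90 and 9.14 (log2 fold change 1.47 ± 0.24 SE, adjusted p = 0.000126). SELENBP1, a selenium-binding methanethiol oxidase, was at 28.7, 27.6, 35 and 15.2 against 10.3, 7.35, 8.01 and 11.2 (log2 fold change 1.39 ± 0.28 SE, adjusted p = 0.00299). Replicate 4 was the lowest treated tumor for CARNS1 and SELENBP1, and still above all vehicle tumors. PLLP, a membrane protein of myelin, was at 17.8, 33.3, 38.0 and 20.5 against 11.3, 7.94, 8.89 and 14.0 (log2 fold change 1.26 ± 0.29 SE, adjusted p = 0.012). LRRC51 was at 8.93, 3.54, 9.15 and 2.39 against 1.46, 0.394, 1.37 and 1.40 (log2 fold change 1.58 ± 0.36 SE, adjusted p = 0.012). LRRC51 varied among the treated tumors by more than its distance from the vehicle tumors.

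Further strong increases were those of SMIM1, a small membrane protein of red cells, which had a mean of 8.17 ± 3.77 FPKM against 2.38 ± 1.66 (SD, n = 4 each), and of SFTPD, the lung collectin surfactant protein D, which was at 3.63, 2.35, 3.18 and 1.49 against 0.236, 0.450, 0 and 1.04. The highest vehicle tumor of SMIM1 (4.83) was close to the lowest treated tumor (4.96), and SFTPD was near the detection floor with vehicle. DENND3, an exchange factor for Rab proteins, had a mean of 8.98 ± 2.28 against 2.81 ± 0.528, the myosin phosphatase subunit PPP1R12B of 11.2 ± 2.99 against 4.21 ± 1.68, and the reticulon RTN2 of 7.12 ± 3.11 against 2.12 ± 0.723. Log2 fold changes of these 5 genes were 1.25 to 1.47 and adjusted p 0.0247 to 0.0483, and the calls were lost in 8 (PPP1R12B, DENND3), 12 (SMIM1, SFTPD) or 13 (RTN2) of 18 alternative settings. NQO1, the quinone reductase induced by NRF2, was at 63.2, 86.5, 63.3 and 69.0 against 52.9, 59.2, 47.9 and 40.9 (log2 fold change 0.48 ± 0.13 SE, adjusted p = 0.0382). It was the 1 call of 18 NRF2 targets, whose median was -0.002 (5.56% called, against 1.12% of all genes).

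**Figure D4:**
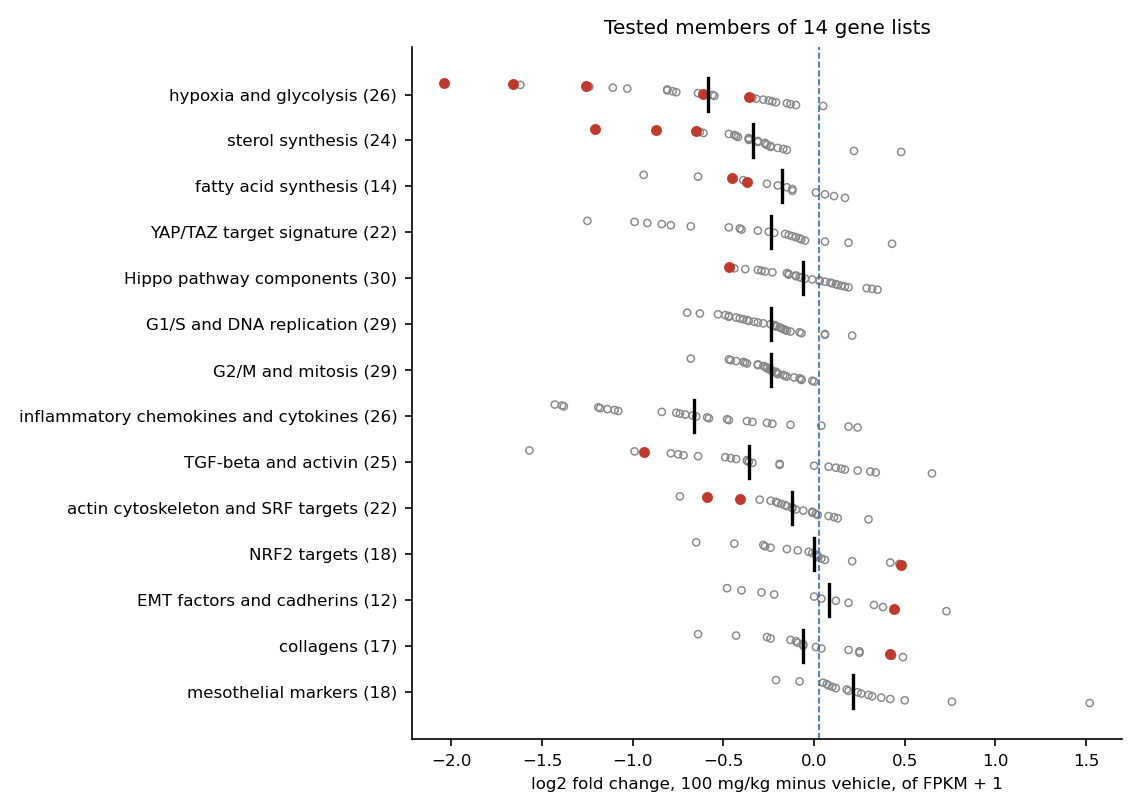
Log2 fold changes of the tested members of 14 gene lists for 100 mg/kg K-975 against vehicle at 24 h, 1 point per gene, with called genes in red, a black bar at the median of each list and a dashed line at the median of all genes (0.029). The hypoxia (-0.582), inflammatory (-0.659) and sterol (-0.334) lists have low medians, and called genes are found in the hypoxia and sterol lists but not in the inflammatory list.

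Proliferation genes had small negative differences and no calls. The 29 genes of G2/M and mitosis all had negative values (median -0.237), and 26 of the 29 genes of G1/S and DNA replication did (median -0.235), yet 0 of either list passed limma's test and 1 G2/M gene was apart. Inflammatory chemokines and cytokines had a lower median than any list with a call, -0.659 over 26 tested genes with 23 negative values and 6 genes apart and lower (2.94% of all genes were), again with 0 called. The acute-phase protein SAA1 (log2 fold change -1.39, adjusted p = 0.22) and the cytokine IL6 (-1.43, adjusted p = 0.56) were among them. At an unadjusted p under 0.05 there were 3 genes of G2/M, 9 of G1/S and 6 of the inflammatory list.

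The other lists held 0 called genes, with 0 to 6 members each at an unadjusted p under 0.05. They were, with the median log2 fold change in each, the BCL2 family (14 tested, -0.003), AP-1 and EGR factors (16, -0.136), MAPK feedback and ETS output (16, -0.089), EGFR family and ligands (11, 0.058), and integrated stress and unfolded protein response (25, -0.108). Heat shock chaperones (16 tested, -0.046), metallothioneins (8, 0), interferon response and antigen presentation (27, -0.034), the circadian clock (17, -0.048) and glucocorticoid-responsive genes (11, -0.227) had none either. The same held for integrins and laminins (26 tested, 0.147) and p53 targets and tumor suppressors (15, 0.176).

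Human genes that mark other cell types gave 0 called genes in each list, with 2 endothelial genes and 1 fibroblast gene at an unadjusted p under 0.05. No adipocyte marker passed the filter on low values. The host cells of these tumors are mouse cells and the values are those of human genes. The lists therefore cannot show whether host cells changed. In bulk tumors, fewer cells of a type and less RNA per cell cannot be told apart. The summed FPKM of 15 macrophage and myeloid markers was 158.6 to 224.3 with treatment and 149.4 to 231.0 with vehicle, with 5 markers at 0 in all 8 tumors, among them the defining LYZ, TYROBP and CD163. For 11 lymphocyte markers the sums were 0.520 to 1.32 and 0.199 to 2.82 (7 at 0 throughout), and for 11 endothelial markers 51.8 to 117 and 59.3 to 96.8 (3 at 0, ERG, CLDN5 and EMCN). The 12 fibroblast and pericyte markers summed to 1053 to 1365 and 1010 to 1211, with COL1A2 at 0. Erythroid (0 to 4.78 and 0.0674 to 1.86), skeletal muscle (1.22 to 6.12 and 0.679 to 3.38), adipocyte (0.191 to 0.998 and 0.0778 to 0.503) and keratinocyte markers (14.0 to 33.5 and 20.6 to 23.1) overlapped between groups. How reads from mouse cells were handled is not given in the sources used here, so the origin of these values is not known.

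The next dose up was tested directly against 100 mg/kg. The contrast of 5 tumors of 200 mg/kg with the 4 of 100 mg/kg called 0 genes (0%), with 881 at an unadjusted p under 0.05. Against the same 4 vehicle tumors, 200 mg/kg called 966 genes (7.41%) and 100 mg/kg 146, with 5 and 4 treated tumors. CCN1 was at a log2 difference of -0.58 and CCN2 of -0.65 ± 0.21 SE (200 minus 100 mg/kg), neither past the adjusted threshold. Each dose's own contrast with the same 4 vehicle tumors gave, for CCN2, -0.79 at 100 mg/kg and -1.44 at 200 mg/kg (adjusted p = 0.05 and 2.11e-06), and for CCN1 -0.68 and -1.26 (adjusted p = 0.0858 and 1.23e-05). For SLC2A3 the values were -2.04 and -1.53 (adjusted p = 0.00509 and 0.0126), for ACAT2 -1.21 and -1.44, and for KLHL4 1.57 and 1.70. HILPDA was called at 100 mg/kg but had -1.09 at 200 mg/kg (adjusted p = 0.131). The same held for DEPP1 (-1.10 at 200 mg/kg, adjusted p = 0.125), TIFA (-0.70, adjusted p = 0.101) and MAMDC2 (-0.76, adjusted p = 0.181). It also held for IRS2 (-0.37, adjusted p = 0.112) and SFTPD (1.04, adjusted p = 0.0506). In the direct contrast of 200 with 100 mg/kg, limma's adjusted p for these genes, from HILPDA to SFTPD, ran from 0.732 to 0.911. A difference between the doses was therefore not shown for them. Of the 146 genes called at 100 mg/kg, 145 had the same direction at 200 mg/kg, and 68 were further from 0 there. The dosing volume was 10 mL/kg at 100 mg/kg and 20 mL/kg at 200 mg/kg and with vehicle, and the vehicle tumors are shared.

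Set against the 5 untreated tumors of the same study, 100 mg/kg gave 260 called genes (1.99%), 140 higher and 120 lower, and vehicle against untreated gave 0 by limma (547 at an unadjusted p under 0.05). SLC2A3 had a log2 fold change of -2.05 against untreated tumors (adjusted p = 0.00358), and CCN2 of -0.95 (adjusted p = 0.00678) and CCN1 of -0.74 (adjusted p = 0.0306), both past the threshold there. In this contrast 14 genes of the hypoxia list and 4 of the YAP/TAZ signature were called lower. All 146 genes called against vehicle had the same direction against untreated tumors, and 92 of them were called there. Those not called there included LRRC51 (adjusted p = 0.0974), FASN (adjusted p = 0.178) and NQO1 (adjusted p = 0.204). The treated tumors are the same in both contrasts.

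The response at 24 h was also compared with that of 10 tumors of 100 mg/kg against 10 of vehicle at 3 to 6 h, each from 2 cage groups of 5, where time and study coincide and cannot be told apart. At 3 to 6 h, 56 genes were called (0.43%). The difference between the 24 h and the 3 to 6 h effect was called for 2 genes (0.0153%; 1326 at an unadjusted p under 0.05). KLHL4 had a log2 fold change of 0.05 ± 0.16 SE at 3 to 6 h and 1.57 at 24 h (difference 1.52 ± 0.30 SE, adjusted p = 0.0378). Its mean was 4.75 FPKM with treatment and 4.52 with vehicle at 3 to 6 h, and 7.04 and 1.71 at 24 h, so the vehicle tumors of the studies differed in level by more than the treated tumors. PEA15 had -0.05 ± 0.04 SE and -0.45 (difference -0.40 ± 0.08 SE, adjusted p = 0.0439). These 2 calls were lost when replicate 2 or 3 of 100 mg/kg or replicate 2 or 3 of vehicle was left out, and with all 94 libraries, where 0 genes passed, and 1 of them was lost without replicate 1 of 100 mg/kg or replicate 4 of vehicle. Without replicate 4 of 100 mg/kg, 18 genes passed.

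Among the canonical targets, CCN1 was at -0.78 ± 0.13 SE at 3 to 6 h (adjusted p = 0.000881) and -0.68 at 24 h, and CCN2 at -0.63 ± 0.14 SE (adjusted p = 0.0126) and -0.79, with differences between the times of 0.09 and -0.16 that did not pass (adjusted p = 0.932 and 0.881). AMOTL2 was called at 3 to 6 h (-0.62 ± 0.09 SE, adjusted p = 2.56e-05) and was at -0.14 at 24 h, with a difference of 0.48 (adjusted p = 0.29). For the metabolic genes the early values were near 0: SLC2A3 was at 0.16 ± 0.27 SE, EGLN3 at 0.10, FDPS at 0.02 and ACAT2 at -0.18 ± 0.12 SE, none called. Their vehicle levels differed between the studies too. At 3 to 6 h and 24 h, mean vehicle FPKM was 54.7 and 97.8 for SLC2A3, and 17.0 and 26.5 for EGLN3. It was 103.5 and 111.7 for FDPS, and 64.8 and 83.6 for ACAT2. With treatment the means were 52.05 and 22.3 (SLC2A3), 17.1 and 10.7 (EGLN3), 102.7 and 60.7 (FDPS), and 56.3 and 35.5 (ACAT2). The differences between the times, -2.20 for SLC2A3 (adjusted p = 0.0651), -1.36 for EGLN3 (adjusted p = 0.0913), -0.89 for FDPS (adjusted p = 0.0798) and -1.03 for ACAT2 (adjusted p = 0.0561), did not pass. A change of these genes that is particular to 24 h was therefore not shown.

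**Figure D5:**
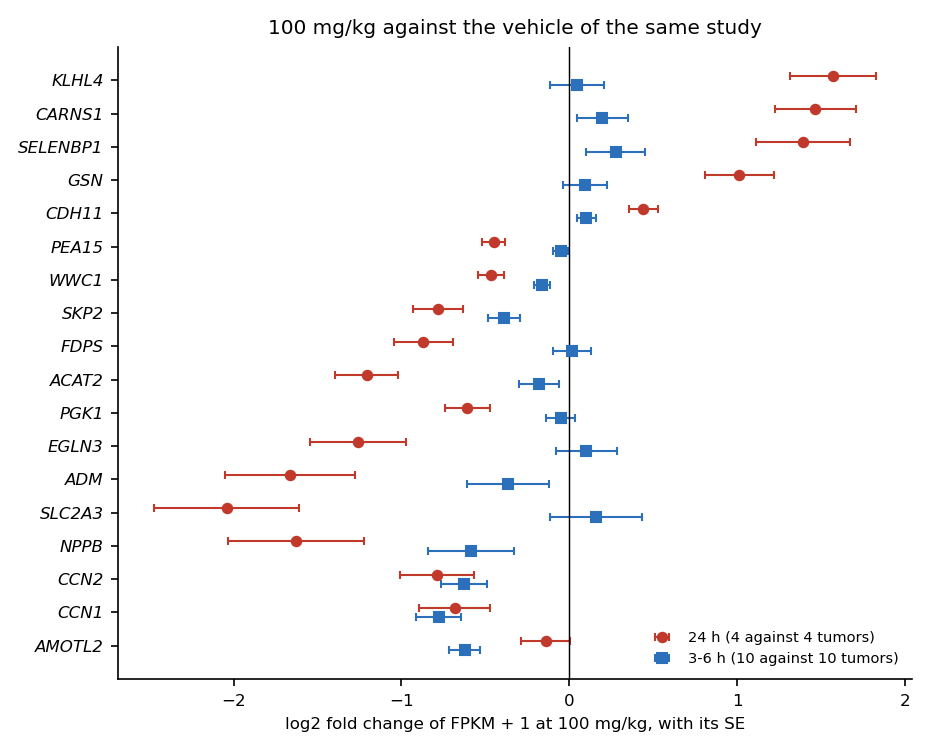
Log2 fold change ± SE of 18 genes for 100 mg/kg K-975 against vehicle at 24 h (4 against 4 tumors) and at 3 to 6 h (10 against 10 tumors of another study). CCN1 and CCN2 are below 0 at both times, SLC2A3, ACAT2 and KLHL4 are near 0 at 3 to 6 h, and the difference between times was called for KLHL4 and PEA15.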

How the data were processed

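Total RNA of xenograft tumors was made into KAPA HyperPrep libraries, enriched with KAPA HyperCap probes and sequenced as paired ends. The authors deposited FPKM in 1 table for the 94 libraries. Per the submitters' processing notes STAR and GRCh38 were used, and the quantifier, the annotation release and the treatment of mouse reads are not given in the sources used here. FPKM are relative to each library's total, and probe capture also enters a gene's level. The table held 20555 entries, of which 316 further entries of 284 gene IDs were left out, leaving 20239. Blank cells (32, in 21 genes) were read as 0.

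Groups came from the labels, and 24 h and 3 to 6 h from the label of the untreated control in the same study code. Replicate numbers follow accession order. The p-values rest on the spread between tumors of separate animals, with 1 cage group per arm at 24 h and 2 per arm at 3 to 6 h. In limma this spread, and with it each SE, was pooled over all 19 groups of kept libraries. It is therefore not the spread of the compared tumors alone. Libraries with under 10000 genes at an FPKM of 1 or more were left out (3 of 94), a limit set after values had been seen. The 91 kept held 11344 to 11665 such genes.

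The 13036 genes that reached an FPKM of 1 in 4 or more libraries were tested on log2(FPKM + 1) with limma 3.58.1 (R 4.3.3, trend and robust), 1 coefficient for each of 19 groups, with Benjamini-Hochberg adjustment over all genes tested and a threshold of 0.05. The deR score was tested with an exact permutation test (scipy 1.17.1). Scripts were tested on simulated data. Promoter windows are the 250 bases upstream of RefSeq starts (GRCh38.p14), and 58 of the 70 lower and 58 of the 76 higher genes matched.

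Genes were named by rule: the canonical YAP/TAZ targets and TEAD factors, the 10 highest and 10 lowest called genes whose groups did not overlap, up to 4 called members of each list, and up to 5 called genes of each other contrast. Other genes were named after their values were seen. The comparison, the genes and all 37 lists were chosen with earlier results of these data known. Alternatives were other scalings, filters, pseudocounts, sets of libraries, array weights and leaving out each tumor.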

Additional observations from a re-analysis of the deposited data

Results flagged for a closer look

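In 5 of 102 groups of 4 tumors examined, 1 tumor stood apart from the other 3 by more than Dixon's 95% critical value for 4 samples allows, by the gap to the nearest tumor over the range of the group, and chance flags about 1 in 20 groups. CCN1 was lowest in vehicle replicate 4 (196 FPKM, gap over range 0.919), as were AXL (182 FPKM, 0.852) and WWC1 (438 FPKM, 0.915). Without that tumor the vehicle values of CCN1 were 263 to 268 FPKM. LRRC51 was lowest in vehicle replicate 2 (0.394 FPKM, 0.916), and IRS2 in replicate 2 of 100 mg/kg (11.4 FPKM, 0.854).

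A difference between the effect at 24 h and that at 3 to 6 h passed limma's test for KLHL4 (log2 difference 1.52, adjusted p = 0.0378) and PEA15 (-0.40, adjusted p = 0.0439). Mean KLHL4 was 7.04 FPKM with treatment and 1.71 with vehicle at 24 h, and 4.75 and 4.52 at 3 to 6 h. Time and study coincide in this comparison and cannot be told apart.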

How the results depend on the processing

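Of 146 genes called against vehicle, the count became 2 with all 94 libraries, 42 with the 24 h study alone, 9 with only the groups compared, 260 with untreated tumors in place of vehicle, and 30 to 290 when single tumors were left out. It stayed between 118 and 203 under a pseudocount of 0.1, no filter, quantile normalization, median-of-ratios scaling, plain eBayes and array weights. For 200 against 100 mg/kg the count of 0 became 1 with no filter and 0 to 3 when single tumors were left out. For the difference between times the count of 2 became 0 with all 94 libraries, 5 with a pseudocount of 0.1, 0 after quantile normalization, 1 with plain eBayes, 7 with array weights and 0 to 18 when single tumors were left out. The deR difference of -0.0367 was -0.0442 with the shallow library and -0.0337 against untreated tumors, both past 0.05, and -0.0455 to -0.0286 when single tumors were left out. The hypoxia list had 1 to 7 lower calls (main 5), the sterol list 2 to 3 (main 3) and the positive effectors 6 to 27 (main 13) when single tumors were left out. The causes of these shifts were not tested beyond the libraries and genes each setting leaves out.

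The following counts cover the named genes only, which were picked partly for large changes or low adjusted p, and do not describe all 146 called genes. Of the values of the 37 named called genes by setting, 436 kept direction and side of the threshold, 230 kept direction only and 0 reversed. HILPDA, SFTPD and SMIM1 lost their call in 12 of 18 settings, and FASN, RTN2 and TAGLN in 13. Of the values of genes not called, 16 passed the threshold (CCN2 in 6 of 18 settings, CCN1 and AXL in 3 each, TEAD4 in 2, ANKRD1 and CRIM1 in 1 each) and 8 reversed: YAP1 was -0.12 with all 94 libraries and WWTR1 0.00 with array weights, and when single tumors were left out AMOTL2 ran from -0.23 to 0.01 (positive without replicate 1 of 100 mg/kg), TEAD3 from -0.17 to 0.01 (positive without replicate 2 of 100 mg/kg) and WWTR1 from -0.11 to 0.23 (negative without replicate 1 or 4 of 100 mg/kg or replicate 3 or 4 of vehicle). No paired analysis was possible because the labels give no replicate numbers that tie tumors of different groups together. Without counts, sampling error cannot be set apart from the spread between tumors.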
